A study of Mus musculus with 8 samples.

Results

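Semaphorins, plexins and neuropilins were examined as ligands and receptors of 1 signalling family in splenic dendritic cells (DCs). The members were all genes whose symbol names a semaphorin of classes 3 to 7, a plexin of families A to D, or neuropilin 1 or 2. The arrays measured 31 such genes among 22180 genes with a probe set of their own, namely 20 semaphorins, 9 plexins and 2 neuropilins. Where a gene had more than 1 probe set, as Plxna1 and Plxnb1 did, the one with the highest mean over the 8 arrays stood for it. Total RNA of sorted DCs was hybridised to Affymetrix Mouse Gene 2.0 ST arrays, and each value is a deposited log2 signal of 1 probe set on 1 array. WT DCs came from Lkb1f/f mice (3 arrays) and Lkb1-deficient (KO) DCs from Cd11cCreLkb1f/f mice (3 arrays), in which Cre recombinase removes the kinase gene Lkb1 from cells that use the Cd11c promoter. Control and LPS DCs (1 array each) came from wild type C57BL/6 mice, either untreated or given lipopolysaccharide (LPS), a bacterial cell wall component, overnight. A legend of the study calls the LPS-treated mice Lkb1f/f, which the labels do not. All mice were 8 weeks old with a C57BL/6 background, and both floxed groups carried the same Lkb1f/f alleles. The Cd11c promoter is also active in some macrophages, and the labels do not say whether animals were pooled or whether replicates were separate mice, so p-values measure only the spread between these arrays, which may be technical.

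Semaphorins are secreted or membrane-bound proteins, first known as guidance cues for growing axons, that also act between immune cells. Most signal through plexins, transmembrane receptors whose cytoplasmic part switches off small GTPases of the Ras and Rap type and so loosens adhesion and rearranges actin. Most secreted class 3 semaphorins first bind a neuropilin, which holds them for a class A plexin, whereas semaphorins of classes 4 to 7 generally bind plexins directly. In DCs, plexin-A1 and neuropilins are known for contacts with T cells and for migration, and Sema4a and Sema7a for effects on T cells and macrophages.

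Among the DC genes, Itgax, which encodes CD11c, lay between 8.48 and 10.46 on the WT and KO arrays. Flt3, the receptor for the DC growth factor, lay between 8.32 and 10.66, and Zbtb46 between 5.67 and 7.78. The summed signal of 5 DC genes was 12.14 to 13.50 on the WT arrays, and that of 7 macrophage and monocyte genes 12.15 to 13.03. These levels go with the DC label but do not measure the purity of the sort. The arrays numbered 3 stand apart: their medians were 3.40 (WT) and 3.35 (KO), against 4.07 to 4.64 on the other WT and KO arrays, and each of 6 neutrophil genes was highest on them in both groups. Values are therefore given by number, so that they can be read without these arrays. Stk11, the gene of Lkb1, gave 6.73, 6.83 and 5.96 on the WT arrays and 6.67, 6.41 and 5.55 on the KO arrays. The position of its probes relative to the deleted exons is not given in the sources used here, so these values do not check the deletion. In sorted bulk cells, fewer cells of a type and less RNA per cell cannot be told apart.

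All 31 members had values on all 8 arrays, and 16 lay above the median of all probe sets on each of the 3 WT arrays. The share of all probe sets that did so was not computed, so this count is no result about the family. Cdh5 and Col1a1, genes of endothelial and stromal cells, also lay above the median on all 3, at 4.57 to 5.46 and 3.77 to 5.01. Lying above it therefore does not show that DCs express a gene. A probe set's brightness depends on its probes as well as on its transcript, so these levels do not rank the genes. Among the class 3 semaphorins, which are secreted, only Sema3f of 7 lay above the median on all 3, at 5.21 ± 0.72 (SD, n = 3). The WT means of Sema3a, Sema3b, Sema3c, Sema3d, Sema3e and Sema3g ran from 2.43 to 4.17. Of the 6 class 4 semaphorins, 5 lay above the median on all 3, with Sema4d, also known as CD100, at 8.57 ± 0.88, Sema4a at 7.71 ± 0.42, Sema4b at 6.69 ± 0.05, Sema4f at 5.08 ± 1.15 and Sema4c at 4.56 ± 0.34, while Sema4g was at 2.97 ± 0.59. In classes 5 and 6, both made of transmembrane proteins, Sema5b, Sema6a and Sema6d did so, with Sema6d at 7.15 ± 0.85, and Sema5a, Sema6b and Sema6c did not. Sema7a, the single member of class 7 and the one semaphorin anchored by a lipid, was at 7.73 ± 1.11.

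Of the receptors, 1 plexin in each family lay above the median on all 3 WT arrays. These were Plxna1 at 6.77 ± 0.45, Plxnb2 at 8.63 ± 0.63, Plxnc1, the receptor of Sema7a, at 10.38 ± 0.90, and Plxnd1 at 8.23 ± 1.19. Plxna2, Plxna3, Plxna4, Plxnb1 and Plxnb3 had WT means between 2.77 and 4.18. Both neuropilins lay above it, Nrp1 at 6.04 ± 0.44 and Nrp2 at 4.58 ± 0.46.

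**Figure D1:**
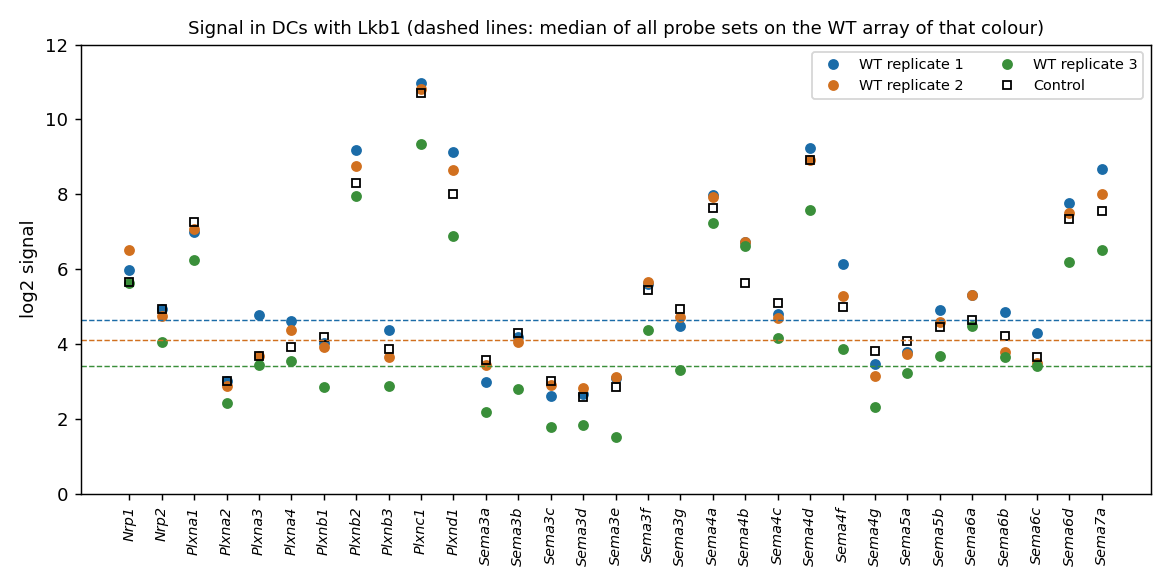
Deposited log2 signal (vertical axis) of the 31 members on the 3 WT arrays (filled circles, coloured by replicate number) and on the Control array (open squares); dashed lines mark each WT array's median over all probe sets, 4.64, 4.09 and 3.40. Green points, from WT array 3, lie below the other WT arrays for most members, as that array's median does.

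The comparison of KO with WT DCs asked how the family differed when Lkb1 was absent. Nrp2, the neuropilin that binds Sema3f and some other class 3 semaphorins, was 6.96-fold higher, and Sema7a was 2.86-fold higher. Sema4c, Sema3f, Sema4a and Plxna4 were 1.57-fold to 2.10-fold higher on average, and each was higher in all 3 pairs of same-numbered arrays. No member was 1.5-fold lower on average and lower in all 3 pairs. Over the whole family the median difference was 0.02 on the log2 scale, and over all 41345 probe sets it was -0.02.

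Limma without pairing of the arrays, with p-values adjusted after Benjamini-Hochberg over every probe set, called 0 of 31 members at an adjusted p under 0.05, against 0.00967% of all probe sets. Its smallest adjusted p among the members was 0.074, for Nrp2. Asking for at least 1.5-fold and an unadjusted p under 0.05 took 2 members, Nrp2 and Sema7a, both higher (0.3% of all probe sets), and 0 lower (0.0605%). The methods' t-test gave 1 member below 0.05 unadjusted, Nrp2 (0.268% of all probe sets), and 0 after adjustment. In this unpaired limma fit the standard error was fully pooled, at 0.63 for each probe set, and p therefore ranks probe sets by how far they differ.

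With the replicate number as a block, limma called 2 members higher, Nrp2 with an adjusted p of 0.030 and Sema7a with 0.034, beside 0.206% of all probe sets, and 0 lower, beside 0.0242%. With any 1 of the 3 pairs left out, the blocked fit called 0 of all 41345 probe sets, so it could not bear on these 2 members, whose single pair differences were 2.35 to 3.18 for Nrp2 and 1.32 to 1.75 for Sema7a. By the rule of 1.5-fold with p below 0.05 before adjustment, the blocked fit took 6 members higher (1.53% of all probe sets) and 0 lower (1.42%). These same 6, Nrp2, Sema7a, Sema4c, Sema3f, Sema4a and Plxna4, were the ones at least 1.5-fold higher on average and higher in every pair, a pattern found in 1.53% of all probe sets. The mirror pattern, 1.5-fold lower and lower in every pair, was found in 1.44%. The KO and WT arrays did not overlap for 3 members, Nrp2, Sema4a and Sema4c, all higher (0.38% of all probe sets), and for none lower (0.193%).

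**Figure D2:**
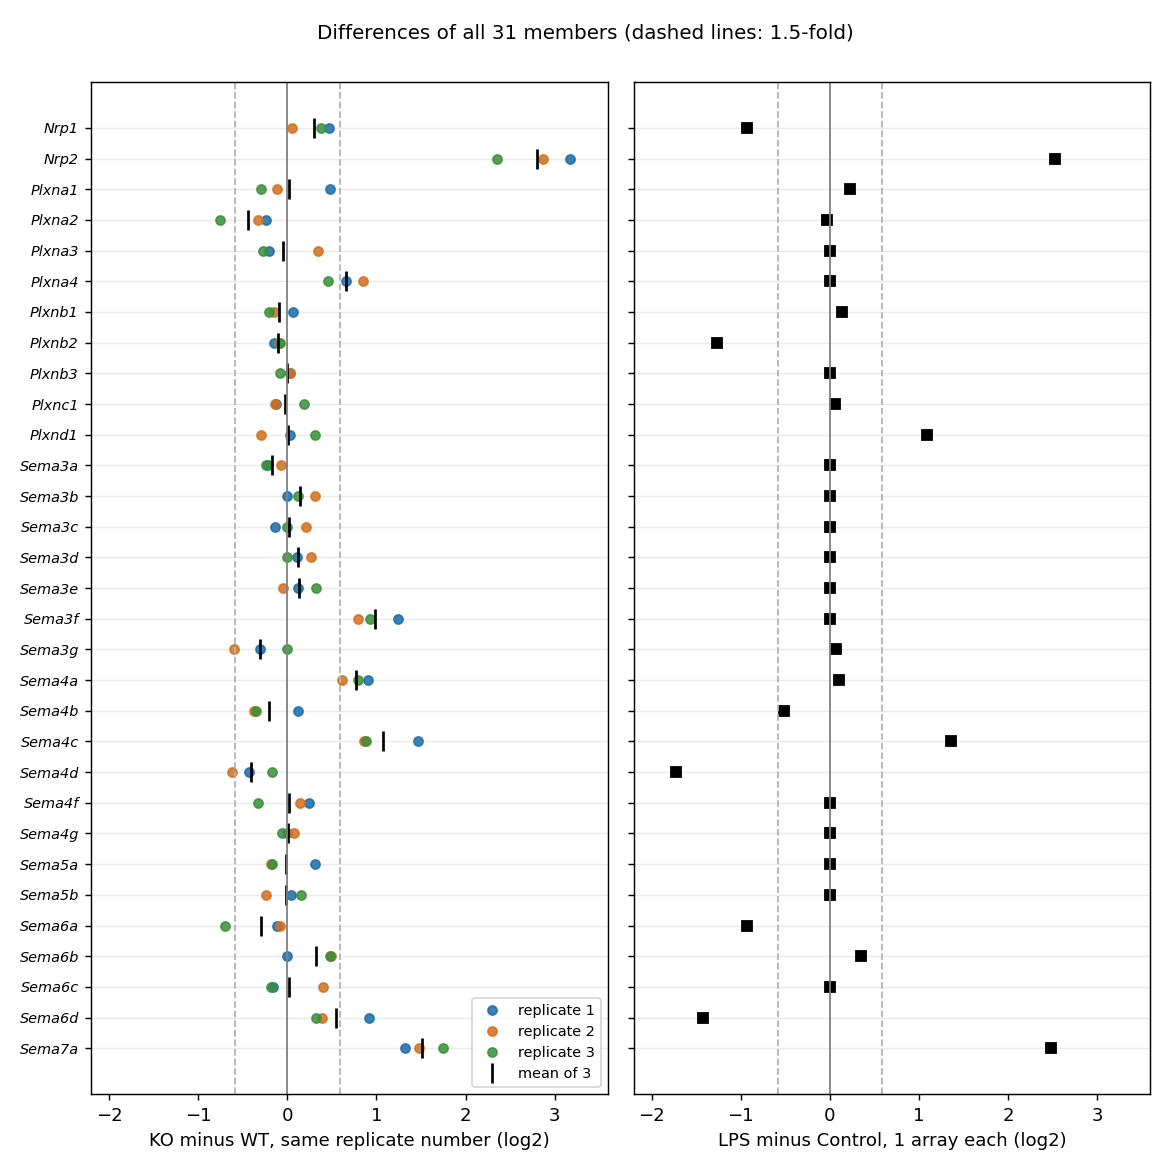
Differences of the 31 members on the log2 scale. Left, KO minus WT for each replicate number (coloured circles) with their mean (black bar); right, LPS minus Control from 1 array each (squares); dashed lines mark 1.5-fold. Nrp2 stands farthest to the right among the KO differences, with 2.35 to 3.18 in the 3 pairs, and Sema4d farthest to the left under LPS, at -1.73.

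Nrp2 gave 4.93, 4.76 and 4.05 on WT arrays 1, 2 and 3, and 8.10, 7.63 and 6.40 on the same-numbered KO arrays. Every KO array lay above every WT array, and the Control array, at 4.92, lay within the WT range. The mean difference was 2.80 (standard error 0.18 with the block), with 3.18, 2.87 and 2.35 in the 3 pairs. On the LPS array Nrp2 was at 7.45, so LPS minus Control was 2.53, a 5.76-fold difference. Its promoter, from 250 bases before to 50 after the transcription start in RefSeq (GRCm38.p6, chr1:62703067-62703366, plus strand), is shown because this gene had the largest KO difference of the family. It holds 37 CpG dinucleotides, where the median over 32851 RefSeq promoters is 7.
Nrp2 promoter: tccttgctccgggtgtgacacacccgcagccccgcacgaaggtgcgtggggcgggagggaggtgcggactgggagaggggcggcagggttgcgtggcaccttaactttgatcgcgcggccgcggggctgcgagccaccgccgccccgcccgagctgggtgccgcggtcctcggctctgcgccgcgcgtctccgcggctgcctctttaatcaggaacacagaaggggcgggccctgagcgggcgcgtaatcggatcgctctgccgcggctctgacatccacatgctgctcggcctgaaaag
No letter is capitalised, since none of 3 motifs searched on both strands was found. They were the core TGACG of the cAMP response element, the kappaB consensus to which NF-kappaB binds, and the interferon-stimulated element GAAANNGAAA, held by 20.8%, 8.46% and 3.44% of all RefSeq promoters. The full cAMP response element TGACGTCA, which contains that core, was in none of the 37 promoters of 26 member genes listed in RefSeq and in 1.79% of all promoters.

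Nrp1, the other neuropilin, which binds Sema3a and vascular endothelial growth factor, gave 5.97, 6.51 and 5.64 on the WT arrays and 6.43, 6.56 and 6.02 on the KO arrays. Those groups overlapped, and the mean difference was 0.30 (adjusted p = 0.46 with the block). It went from 5.65 on the Control array to 4.72 on the LPS array, a value below all 7 other arrays. Under LPS the neuropilins thus differed in sign, Nrp2 higher by 2.53 and Nrp1 lower by 0.93. Mouse regulatory T cells also carry Nrp1. The summed signal of 5 T cell genes lay between 8.34 and 9.06 on the WT arrays, between 8.15 and 9.28 on the KO arrays, at 7.36 on Control and at 7.12 on LPS, and its part in the Nrp1 values was not tested.

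Sema3f, the secreted ligand of Nrp2, gave 5.61, 5.64 and 4.38 on the WT arrays and 6.85, 6.44 and 5.31 on the KO arrays. Only KO array 3 reached into the WT range, and each KO array lay above its same-numbered WT array. The difference was 0.99 (standard error 0.13 with the block), or 1.98-fold, with an adjusted p of 0.096 with the block. Sema3f had the same value, 5.45, with and without LPS. Ligand and receptor were thus both higher in each KO array than in its WT counterpart. Under LPS the value of Nrp2 was higher, and that of Sema3f was equal to the last digit, which does not give its response. The other 6 class 3 semaphorins had mean differences between -0.30 and 0.14. Sema3e, which binds plexin-D1 without a neuropilin, differed by 0.13, and Sema3a by -0.17. Under LPS, 6 of the 7 class 3 genes had equal values on both arrays, and Sema3g differed by 0.07.

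Equal values were common on these 2 arrays: 54.2% of the probe sets with values on both, and 14 of the 31 members, were equal to the last digit on Control and LPS. How such ties arose in the deposited table is not given in the sources used here, and an equal pair of values cannot be read as a measured lack of response. Plxna3, Plxna4, Plxnb3, Sema4f, Sema4g, Sema5a, Sema5b and Sema6c were the tied members outside class 3. Same-numbered WT and KO arrays were tied at 5.58%, 2.95% and 8.28% of probe sets in pairs 1, 2 and 3. Members tied there were Sema3b, Sema4g and Sema6b in pair 1, and Sema3c, Sema3d and Sema3g in pair 3. Each such tie entered the mean KO minus WT difference as 0.

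Sema7a, known as CD108, binds plexin-C1 and an integrin made of the products of Itga1 and Itgb1. It gave 8.67, 8.02 and 6.50 on the WT arrays and 9.98, 9.50 and 8.25 on the KO arrays. KO array 3 lay below WT array 1, but within each number the KO value was higher, by 1.32, 1.48 and 1.75. The mean difference was 1.52 (standard error 0.12 with the block). LPS minus Control was 2.48, from 7.55 to 10.03 or 5.58-fold, and the LPS value was the highest of the 8 arrays. The receptor Plxnc1 did not share this: its KO minus WT values were -0.13, -0.14 and 0.18, and it was at 10.70 on Control and 10.75 on LPS. Itgb1, the integrin beta chain, was higher by 0.49, 0.56 and 0.38 in the 3 pairs (adjusted p = 0.22 with the block) and differed by -0.12 under LPS. Itga1, the alpha chain, differed by -0.15 on average and by -0.12 under LPS.

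The promoter of Sema7a (GRCm38.p6, chr9:57939862-57940161, plus strand) is shown as that of the other member called with the block. Its capitals mark the core of the cAMP response element, the 1 match among the 3 motifs, whose first base lies at position 41 counted from the start base as 1, and it holds 23 CpG dinucleotides.
Sema7a promoter: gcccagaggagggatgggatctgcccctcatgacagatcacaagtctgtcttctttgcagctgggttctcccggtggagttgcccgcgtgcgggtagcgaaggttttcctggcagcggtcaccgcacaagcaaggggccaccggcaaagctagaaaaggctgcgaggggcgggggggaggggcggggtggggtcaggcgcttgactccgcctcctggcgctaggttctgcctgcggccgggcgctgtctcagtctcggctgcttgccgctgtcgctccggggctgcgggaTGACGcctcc
That core was in 3 of 37 member promoters, 8.11%, against 20.8% of all promoters. A match of letters is a description and no evidence of binding, and no match says nothing of the factor.

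Sema4c, a transmembrane ligand of plexin-B2, gave 4.81, 4.70 and 4.17 on the WT arrays and 6.28, 5.55 and 5.04 on the KO arrays. The groups did not overlap, and the 3 differences were 1.47, 0.86 and 0.88. The mean difference was 1.07 (standard error 0.16 and adjusted p = 0.12 with the block). From Control to LPS it went from 5.09 to 6.46, 2.58-fold higher. Nrp2, Sema7a and Sema4c were the members that were at least 1.5-fold higher in both comparisons. The share of all probe sets that were so in both was not computed, and the LPS side rests on 1 array per group. RefSeq lists 2 starts for Sema4c. The promoter of 1 of them (GRCm38.p6, chr1:36558332-36558631, minus strand) is shown because its capitals mark a match to the kappaB consensus. This match begins at position -186 from the start, and the promoter of the other start holds 0 matches to the consensus.
Sema4c promoter: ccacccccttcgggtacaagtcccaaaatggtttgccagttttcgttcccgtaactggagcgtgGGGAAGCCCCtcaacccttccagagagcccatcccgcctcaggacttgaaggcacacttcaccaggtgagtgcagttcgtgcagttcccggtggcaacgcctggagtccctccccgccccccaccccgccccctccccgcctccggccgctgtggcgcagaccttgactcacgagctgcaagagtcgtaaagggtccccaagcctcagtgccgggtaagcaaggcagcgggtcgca
The kappaB consensus was in 5 of the 37 member promoters, 13.5%, against 8.46% of all promoters. The other 4 belong to Plxna3, Sema4a, Sema4b and Sema6c. The interferon-stimulated element was in 2 of 37, those of Plxnc1 and Sema6b. Which start is used in DCs was not measured.

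**Figure D3:**
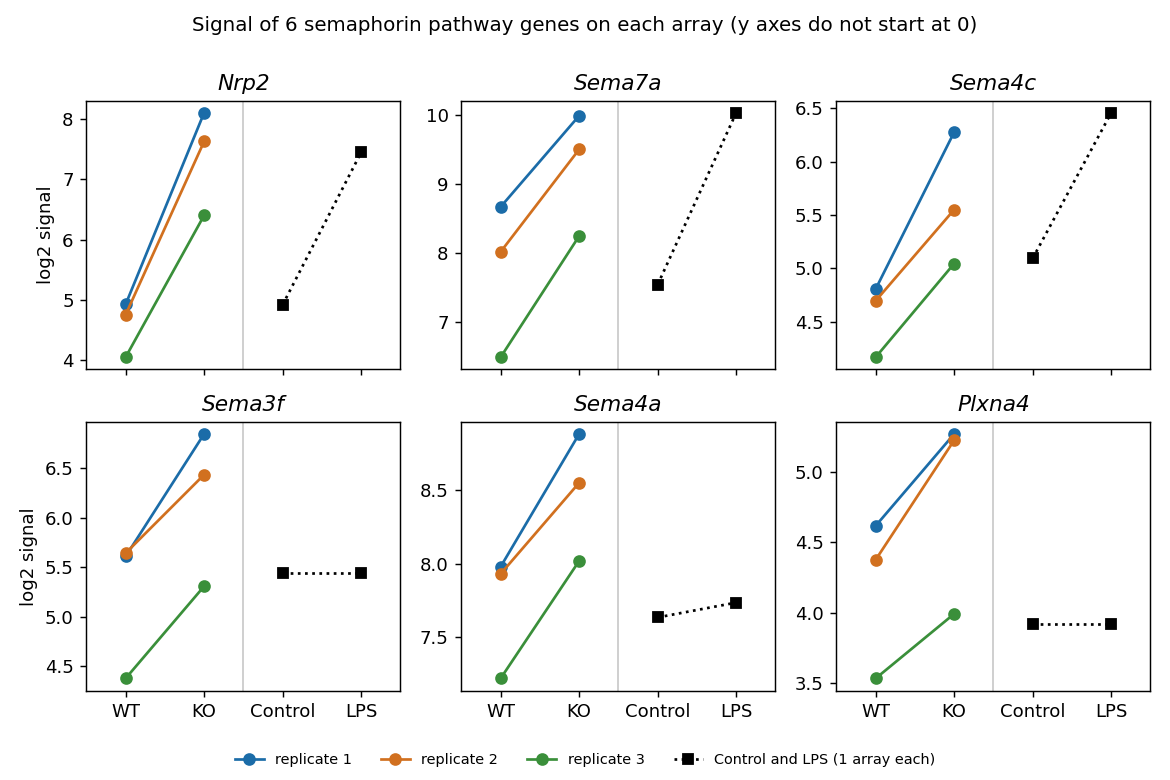
Log2 signal (vertical axes, which do not start at 0) of the 6 members at least 1.5-fold higher on average in KO than in WT DCs and higher in each pair; coloured lines join same-numbered WT and KO arrays, and black squares show the single Control and LPS arrays. All 18 coloured lines go up, while the dotted lines go up steeply for Nrp2, Sema7a and Sema4c, slightly for Sema4a, by 0.10, and are flat for Sema3f and Plxna4.

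Plxnb2, a plexin that binds Sema4c and Sema4d, gave 9.19, 8.74 and 7.95 on the WT arrays and 9.04, 8.65 and 7.87 on the KO arrays. It was lower in each pair, but by 0.15 or less (mean difference -0.11, adjusted p = 0.72 with the block). From Control to LPS it went from 8.29 to 7.02, 2.42-fold lower. Its ligands Sema4c and Sema4d stood on opposite sides. Sema4d, a ligand of plexin-B1 and plexin-B2 that is shed from leukocytes, gave 9.23, 8.91 and 7.57 on the WT arrays and 8.80, 8.30 and 7.40 on the KO arrays. Those groups overlapped, with KO values lower by 0.43, 0.62 and 0.18 (adjusted p = 0.34 with the block). Sema4d was at 8.92 on Control and 7.19 on LPS, 3.32-fold lower, the largest decrease of a member between these 2 arrays. Plxnb1 differed by -0.10 in KO DCs and by 0.13 under LPS. Its second probe set differed by 0.06 in KO DCs and was tied on Control and LPS.

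B cells and T cells also express Sema4d. The summed signal of 5 B cell genes lay between 9.60 and 11.36 on the WT arrays and between 8.95 and 11.29 on the KO arrays, with pair differences of 0.37, -0.65 and -0.61, and was 1.16 lower on LPS than on Control. Singly, the 5 ran from 4.92 to 7.62 on Control and from 4.59 to 6.34 on LPS, where both array medians were 4.14. The part of these cells in the Sema4d values was not tested.

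Sema4a, which binds plexin-D1 and, on mouse T cells, TIM-2, gave 7.98, 7.93 and 7.22 on the WT arrays and 8.88, 8.55 and 8.02 on the KO arrays. The lowest KO value lay just above the highest WT value. The difference was 0.77 (standard error 0.11 and adjusted p = 0.11 with the block), and in the pairs it was 0.90, 0.62 and 0.80. Between Control, at 7.64, and LPS, at 7.74, it differed by 0.10. Plxnd1, shared as a receptor by Sema3e and Sema4a, gave 9.14, 8.66 and 6.89 on the WT arrays and 9.17, 8.36 and 7.19 on the KO arrays. Its pair differences had both signs, 0.03, -0.29 and 0.31, with a mean of 0.01. On the LPS array it was at 9.09, against 8.00 on Control, 2.13-fold higher. Timd2, the gene of TIM-2, differed by 0.0047 on average.

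Plxna4, a receptor of class 3 and class 6 semaphorins, gave 4.62, 4.38 and 3.53 on the WT arrays and 5.27, 5.22 and 3.99 on the KO arrays. The groups overlapped, and the pair differences were 0.65, 0.85 and 0.46 (mean 0.65, adjusted p = 0.17 with the block). Control and LPS were both at 3.92. Plxna1, the class A plexin known from DC and T cell contacts, differed by 0.47, -0.12 and -0.30, and by 0.23 under LPS. Its second probe set differed by -0.18 on average, so neither probe set of Plxna1 shared the direction of Plxna4 in all pairs. Plxna2 was lower in each pair, by 0.24, 0.33 and 0.75 (adjusted p = 0.35 with the block), with WT values between 2.43 and 3.02, below each array's median. Plxna3 differed by -0.05 on average.

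Sema6d, the ligand of plexin-A1, gave 7.76, 7.51 and 6.19 on the WT arrays and 8.68, 7.90 and 6.51 on the KO arrays. The groups overlapped, and KO values were higher by 0.92, 0.39 and 0.32 in the pairs (mean 0.54, adjusted p = 0.31 with the block). The LPS array went the other way, at 5.91 against 7.33 on Control, 2.68-fold lower and below all 7 other arrays. Plexin-A1 can work with Trem2 and Tyrobp, a receptor and its signalling adaptor on myeloid cells. Tyrobp differed by -0.10 in KO DCs and by -1.09 under LPS. Trem2 differed by 0.16 in KO DCs and was tied on Control and LPS. Sema6a, a ligand of plexin-A2 and plexin-A4, gave 5.32, 5.32 and 4.48 on the WT arrays and 5.20, 5.24 and 3.78 on the KO arrays. It was lower in each pair, most on the arrays numbered 3, by 0.70 (adjusted p = 0.55 with the block). It was at 4.63 on Control and 3.71 on LPS, 1.90-fold lower. Sema6b, another ligand of plexin-A4, differed by 0.32 and by 0.35 under LPS.

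The remaining members differed little between KO and WT DCs. Sema4b, Sema4f, Sema4g, Sema5a, Sema5b, Sema6c and Plxnb3 had mean KO minus WT differences between -0.20 and 0.02, none with the same sign in all 3 pairs. Sema4b was 0.51 lower on the LPS array, and the others were tied on Control and LPS, which does not give their response. Over the 25 members outside the 6 above, the smallest adjusted p with the block was 0.31.

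LPS against Control asked how the family differed in DCs of mice exposed to a bacterial stimulus. With 1 array per group there is no replicate check, and LPS was not tested against Control. At 1.5-fold, 4 members were higher, Nrp2, Sema7a, Sema4c and Plxnd1, where 3.63% of 33649 probe sets were. The 5 members that were lower, Sema4d, Sema6d, Plxnb2, Nrp1 and Sema6a, stood against 3.95% of probe sets. The median was 0 both over the members and over all probe sets. As 14 of the 31 members and 54.2% of probe sets were tied on these 2 arrays, it does not describe a response. Within the DC genes Itgax was 2.73 lower on the LPS array and Flt3 0.10 lower. All 4 genes of the CD8+ DC subset were at least 1.5-fold lower, among them Xcr1, its chemokine receptor, by 3.92. Of 5 genes of CD11b+ DCs, Cd4 and Clec4a4 differed by -2.57 and -3.54, Sirpa and Esam by -0.48 and -0.28, and Itgam, which encodes CD11b, was 1.04 higher. Ccr7, the receptor by which mature DCs migrate to lymph nodes, was 1.44 higher. Their part in the members' values was not tested.

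In KO DCs Ccr7 was higher by 0.51, 1.06 and 1.29 in the 3 pairs (adjusted p = 0.17 with the block). Cd4 was lower by 1.33, 1.54 and 0.58, and Clec4a4 by 0.99, 1.27 and 0.57 (adjusted p = 0.16 and 0.15 with the block). The other 3 genes of the CD11b+ DC list did not share this: Itgam was higher by 0.13, 0.39 and 0.29, Esam differed by 0.01 on average and Sirpa by -0.20. Summed over its 5 genes, the list was lower by 0.24 to 0.63. Of 5 plasmacytoid DC genes, Cox6a2 was higher by 1.69 (adjusted p = 0.033 with the block), and the sum of the 5 differed by 0.49, 0.53 and -0.07. Of 7 macrophage and monocyte genes the median difference was -0.18, with Adgre1, the antigen F4/80, at -0.86 and Ly6c2 at 0.20. The part of these in the members' values was not tested.

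Whether LPS and the loss of Lkb1 had unlike effects on a member was examined with limma over all 8 arrays. Control and LPS have no spread of their own in this fit, which takes it from the WT and KO arrays without the block and gives each member the same standard error, 1.20. Of the 31 members, 0 passed an adjusted p under 0.05, beside 0.00297% of all probe sets, and 0 passed an unadjusted p under 0.05. The smallest unadjusted p was that of Sema6d, 0.10, for a difference of -1.96. The difference of the effects was -1.32 for Sema4d, -1.23 for Nrp1 and 1.08 for Plxnd1, all with an adjusted p of 1. That of Sema3f, -0.99, is only its KO difference with the sign reversed, since its Control and LPS values were tied. With so few calls among all probe sets, this fit does not show that the effects on a member were alike.

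**Figure D4:**
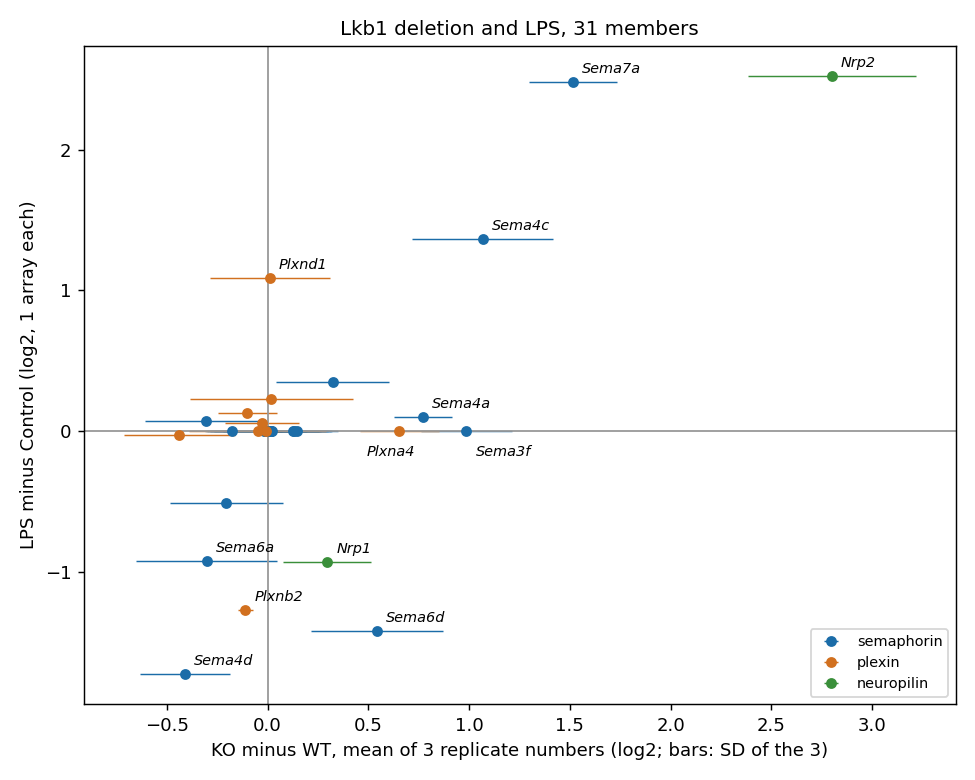
LPS minus Control (vertical axis, log2, 1 array each) against the mean KO minus WT difference (horizontal axis, log2, with bars for the SD of the 3 same-numbered pairs) for 31 members, coloured by kind. Sema7a, Nrp2 and Sema4c lie at the upper right, Plxnd1 at the top near 0 on the horizontal axis, Sema4a, Sema3f and Plxna4 to the right near 0 on the vertical axis, and Sema6d and Nrp1 at the lower right.

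Genes that bind, cut or relay semaphorin signals were followed with a list of 75 symbols, of which 68 had a probe set of their own. In limma 0 passed an adjusted p under 0.05 without or with the block, and 0 passed an unadjusted p of that size without it or by the methods' t-test. In the blocked fit 13 stood higher, and 5 stood lower, by that unadjusted p, beside 5.21% and 6.22% of all probe sets. Their median difference was 0.02. Higher in each pair and 1.5-fold on average were 4, and lower were 0, beside the 1.53% and 1.44% of all probe sets given above. L1cam, an adhesion molecule that joins Nrp1 in receptors for Sema3a, was higher by 0.97, 0.95 and 0.63 (adjusted p = 0.11 with the block). Met, the hepatocyte growth factor receptor that pairs with plexin-B1, was higher by 0.77, 0.54 and 0.77 (adjusted p = 0.13 with the block). Dpysl5, of the collapsin response mediator family that relays Sema3a, was higher by 0.74 on average, and Mmp14, a membrane protease that sheds Sema4d, by 0.64. Next by size were Havcr1 at 0.56, Kdr at 0.49, and Tiam1 and Itgb1 at 0.48 each, with adjusted p between 0.22 and 0.34 with the block.

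Under LPS, 6 of the 68 partners were at least 1.5-fold higher and 7 lower, beside 3.63% and 3.95% of probe sets. Another 26 were tied on Control and LPS, which does not give their response. Mmp14 differed most, from 6.22 on Control to 9.41 on LPS, with 4.41 to 5.57 on the WT arrays and 4.92 to 6.34 on the KO arrays. On the LPS array Mmp14 RNA was thus higher, and RNA of Sema4d, whose protein it sheds, was lower, with 1 array per group. A link between these values was not tested. Kdr, a receptor for vascular endothelial growth factor that neuropilins assist, was higher by 1.59, Rnd1, a GTPase that binds plexins, by 0.97, and Rras2, a relative of the Ras proteins that plexins switch off, by 0.92. Lower were Mical1, an actin-oxidising enzyme downstream of class A plexins, by 1.71, Rnd3, a GTPase of the Rnd group, by 1.70, Tgfb1, whose product binds Nrp1, 2.82-fold, and Tyrobp by 1.09.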

How the data were processed

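Splenic DCs were profiled on Affymetrix Mouse Gene 2.0 ST arrays, 8 in all, with a single log2 value deposited by the authors for each probe set on an array. The methods name GeneSpring, and the submitters' processing notes name MAS5 with no version or role; neither source states summarisation, normalization between arrays or build. Deposited log2 values were used as given, with no filter on dim signals, so a fold is 2 raised to a difference of log2 values; 7696 of 41345 probe sets lacked a value on Control and LPS. The array annotation supplied the symbols, and all 31 members matched RefSeq by gene number. Members and lists were chosen with earlier results of these data known.

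KO and WT were compared with limma 3.58.1 in R 4.3.3 (two-sided), without a block, after the unpaired test of the methods. Same-numbered arrays correlated at 0.85, 0.80 and 0.74 after removal of group means, and arrays of different numbers at -0.13 to -0.61. The labels say nothing of pairing, but each same-numbered correlation passed 0.1, so the blocked fit (replicate number) stands beside the unblocked one. Residual degrees of freedom were 4 without and 2 with the block. The script was tested on simulated data. Values on all 8 arrays are given for members 1.5-fold or more from WT with 1 sign in all pairs or 1.5-fold or more from Control under LPS. Partners named are the 8 largest by each comparison; Itga1, Timd2 and Trem2 are named besides as receptors of members, chosen after their values were seen. Alternatives were the block, the methods' t-test, centring, quantile normalization, 16 added to the linear value, a minimum mean of 5, the lower probe set of a gene, a 2-fold limit and each array left out. The number of arrays limits the precision. Promoters came from RefSeq (GRCm38.p6), for 26 of 31 members.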

Additional observations from a re-analysis of the deposited data

How the results depend on the processing

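Which members count as higher in KO DCs depended on how the arrays were paired and scaled. The count called at an adjusted p under 0.05 was 0 without the block and 2 with the replicate block. It was 0 after the methods' t-test, centring, quantile normalization, addition of 16, the minimum mean and the lower probe set. Under these settings 0 to 4 of all probe sets were called. With each array left out it was 0 to 1, where 0 to 10 of all probe sets were called. The 1 was Nrp2 without KO array 3 (limma, adjusted p = 0.0034), the fit with 10 calls among all probe sets. The blocked count was 0 without replicate 1, 2 or 3 of both groups, where 0 of all 41345 probe sets were called too, so these fits say nothing of the members. The count at 1.5-fold and an unadjusted p under 0.05 was 2 without the block, 6 with the replicate block, 1 by the methods' t-test, 6 with centred arrays, 6 with quantile normalization and 1 to 4 with each array left out. Over all probe sets the share at this rule was 0.36% without the block, 2.96% with it, 0.206% by the methods' t-test, 1.52% with centred arrays, 1.73% with quantile normalization and 0.264% to 0.832% with each array left out. Within the block the count was 6, 5 and 7 without replicates 1, 2 and 3 of both groups. Over all probe sets the shares in these blocked fits were 3.77%, 3.68% and 3.74%. In the unblocked fit the count was 1 without WT array 3, KO array 1 or KO array 2, and 4 without KO array 3. Leaving out 1 array also shifted the median of all probe sets, from -0.35 without WT array 3 to 0.31 without KO array 3. Members whose groups do not overlap numbered 3, then 6 with centred arrays and 8 with quantile normalization (7 higher, 1 lower), while over all probe sets the shares were 0.573%, 4.43% and 5.91%. None of the 6 members at least 1.5-fold higher on average and higher in each pair took the opposite sign under any alternative. Among single members, 476 of the KO results under an alternative stayed on their side of the threshold and 3 became called, all of Nrp2 or Sema7a. Under LPS, 7 to 9 members passed the fold limit across the alternatives, which mix 1.5-fold and 2-fold limits. Shares of all probe sets are not given for these alternatives, so this range is no result about the family. Counts of partners called and of members whose LPS and KO effects differed stayed 0 under the alternatives run for them.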
